A study of Mus musculus with 16 samples.

Results

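The mitochondrial ribosomal protein genes are the nuclear genes for the proteins of the mitochondrial ribosome. They were taken as all rows of both count tables whose gene name starts with Mrpl or Mrps followed by a number, with names marked -ps left out, and 77 of the 24421 rows of each table met this rule. By background knowledge of the ribosome structure, 50 of them encode proteins of the large subunit, with Mrps30 and Mrps18a among these despite their names, and 26 encode proteins of the small subunit. The last one, Mrps36, is counted in neither subunit, because its product is known as a component of the alpha-ketoglutarate dehydrogenase complex. The 77 genes lie on 17 chromosomes.

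The data are mRNA-seq of mouse liver in 16 libraries, 4 in each of 4 groups, and the sources used here give no ages. DKO livers carried floxed alleles of both targets (ARID1A f/f and ARID1B f/f) together with Alb-Cre, a recombinase transgene that is active in hepatocytes, and their controls had these floxed alleles but no Cre (Alb-Cre-). BKO livers carried ARID1B f/f with Alb-Cre, and their controls carried ARID1B f/f without Cre. The BAF chromatin remodelling complex holds either ARID1A or ARID1B. No group lost ARID1A alone and Cre was present in knockouts only, so loss of both subunits, loss of ARID1A and Cre itself cannot be told apart in the DKO comparison. In bulk liver, fewer cells of a type and less RNA per cell cannot be told apart. That libraries came from separate animals rests on the tags, so p-values measure the spread between these libraries. A pair of BKO controls carries the tags F5 and F5-2, and whether both came from 1 animal is unstated, so n = 4 counts libraries there.

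Total counts were 8699417 to 11031443 per library in the DKO experiment, while the BKO libraries held 21151726 to 40551934. Levels are CPM, counts scaled to library size with TMM factors, given as mean ± SD over n = 4 libraries per group, and a gene was called at an adjusted p under 0.05 in edgeR's quasi-likelihood test over all genes tested. Arid1b averaged 44.3 ± 3.98 CPM in BKO livers against 84.8 ± 2.01 CPM in controls, and 60.03 ± 13.7 CPM in DKO livers against 89.3 ± 9.17 CPM in controls, called in both (edgeR adjusted p = 0.00154 in BKO and 0.0167 in DKO). Arid1a averaged 108 ± 6.08 CPM in DKO livers against 124 ± 10.2 CPM in controls and was not called (edgeR adjusted p = 0.149). These levels cover whole genes, and which exons are floxed is unstated in the sources used here.

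The mitochondrial ribosome translates the few proteins that mitochondrial DNA encodes, all of them subunits of the respiratory chain or of ATP synthase. Its RNAs come from mitochondrial DNA, while every one of its proteins is made in the cytosol from a nuclear gene and imported. The hepatocyte is rich in mitochondria and depends on them for fatty acid oxidation, gluconeogenesis and the urea cycle. Compared with its bacterial relatives the mitochondrial ribosome is rich in protein, and many of its proteins have no bacterial counterpart. Promoters of nuclear genes for mitochondrial proteins are known to carry sites for the transcription factors NRF1, GABP (of the ETS family) and YY1.

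The RefSeq promoter table, on GRCm38.p6, held windows of 300 bases, from 250 before to 50 after the annotated start, for 68 of the 77 members, 74 windows in all. The windows of Mrpl50, Mrps18b and Mrpl39 are shown, because these 3 members passed the test in DKO livers under each of 18 alternative fits, a split of the libraries by tag series left aside. They lie at chr4:49521034-49521333, chr17:35916391-35916690 and chr16:84735195-84735494, all on the minus strand, and are written in the direction of transcription with matches to 4 searched motifs in capitals.
Mrpl50: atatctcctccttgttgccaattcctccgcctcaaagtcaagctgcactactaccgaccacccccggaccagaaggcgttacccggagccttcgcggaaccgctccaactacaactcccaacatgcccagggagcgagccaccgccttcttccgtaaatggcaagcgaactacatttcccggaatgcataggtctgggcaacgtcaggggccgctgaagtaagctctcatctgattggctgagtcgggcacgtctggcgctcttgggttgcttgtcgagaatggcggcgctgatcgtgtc
Mrps18b: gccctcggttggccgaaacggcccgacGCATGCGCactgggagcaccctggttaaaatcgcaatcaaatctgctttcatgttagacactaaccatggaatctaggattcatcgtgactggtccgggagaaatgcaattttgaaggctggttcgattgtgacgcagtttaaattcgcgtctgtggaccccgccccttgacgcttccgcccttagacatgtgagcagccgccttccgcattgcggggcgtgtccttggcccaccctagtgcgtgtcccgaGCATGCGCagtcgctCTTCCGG
Mrpl39: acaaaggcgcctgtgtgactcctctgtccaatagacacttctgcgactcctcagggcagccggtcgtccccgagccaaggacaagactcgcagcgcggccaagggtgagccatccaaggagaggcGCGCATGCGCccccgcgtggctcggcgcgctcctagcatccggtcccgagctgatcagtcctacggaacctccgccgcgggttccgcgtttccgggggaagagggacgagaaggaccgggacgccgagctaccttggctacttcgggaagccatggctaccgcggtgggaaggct
The NRF1 core GCGCATGC, read on both strands like the other motifs, stood in the windows of Mrps18b and Mrpl39. In Mrps18b it began 223 bases upstream of the RefSeq start and again at base 29 from that start. The ETS core CCGGAAG followed at base 44, and each of these was read on the other strand. In Mrpl39 a single run matched on both strands, 125 and 123 bases upstream of the RefSeq start, so these 2 matches overlap. The gene positions given below come from GENCODE M21, whose starts differ. Its Mrps18b starts at 35916389, so the whole window shown lies upstream of that gene. Its Mrpl39 starts at 84735742, so the whole window shown lies inside that gene. The Mrpl50 window held no match to any of the 4 motifs. Over all members the NRF1 core was in 8 of 74 windows (10.8%), against 2.71% of the 32851 mouse promoter windows in the table. The ETS core was in 25 of the 74 windows (33.8%), against 8.86% of all windows. The YY1 core AAGATGGCG was in 8 of the 74 (10.8%, against 1.40%) and the E-box CACGTG, the letters bound by MYC and other factors, in 7 of the 74 (9.46%, against 7.15%). Member windows had a median GC content of 58.5%, against 52.7% for all windows, and its part in these shares was not tested. Of the 11 members called in DKO livers that had a window, 3 held the NRF1 core (Mrpl10, Mrpl39 and Mrps18b), 2 the ETS core (Mrps21 and Mrps18b), 1 the E-box (Mrpl2) and 0 the YY1 core.

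In DKO livers the mitochondrial ribosomal protein genes changed little and in both directions, with more of them below 0 than above. The log2 fold change was below 0 for 50 members and above 0 for 27, against 6219 and 6626 of all genes tested. Of the 77, all of which were tested, 3 were higher and 11 lower than in controls, and 63 were not called. Over all 12848 genes tested, 19.2% were called higher and 16.6% lower, against 3.90% and 14.3% of the members. The share of lower members was thus near the background, and the share of higher members was below it. The median log2 fold change of the members was -0.07, with an interquartile range from -0.30 to 0.05, a range from -0.65 to 0.84 and a median standard error (SE) of 0.15. The median over all genes tested was 0.02, with an interquartile range from -0.30 to 0.43. No member reached a 2-fold change, whereas 18.1% of all genes tested did. With scaling by total counts only, the median over all genes moved to 0.20 and that of the members to 0.11, so that the members lay below all genes by 0.08 on the log2 scale, against 0.09 with TMM, while the calls became 4 higher and 1 lower.

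Library by library the members moved little. The levels of the 77 genes summed to 1299.6, 1247, 1161 and 1379 CPM in the libraries DKO-7068, DKO-7070, DKO-7112 and DKO-7137, against 1366, 1321, 1413 and 1393 CPM in the controls WT-7067, WT-7069, WT-7114 and WT-7139, an order kept in all later lists. The groups overlapped, with averages of 1272 ± 91.4 CPM in DKO livers and 1373 ± 39.9 CPM in controls. Before scaling the members took 0.117% to 0.150% of all counts in DKO libraries and 0.125% to 0.135% in controls. DKO-7112 was the lowest library, with 64 of the 77 members under the control mean and a median log2 ratio to it of -0.21, while DKO-7137 had 36 under it and a median of 0.04. Without DKO-7112 there were 3 higher and 10 lower members. The tags of the DKO experiment fall into a low series, with DKO-7068 and DKO-7070, and a high series, with DKO-7112 and DKO-7137, and what the series stand for is unstated in the sources used here. In a split chosen after the data were seen, the low series alone (2 against 2) gave 1 higher and 5 lower members, against 16.7% higher and 15.2% lower of 13310 genes tested. The high series alone gave 1 higher and 1 lower, against 6.48% and 4.11% of 12906, so calls were fewer there over all genes too. In neither series alone did Mrps18b pass (edgeR adjusted p = 0.161 and 0.0997), and Mrpl39 did not pass in the high series (edgeR adjusted p = 0.127).

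**Figure D1:**
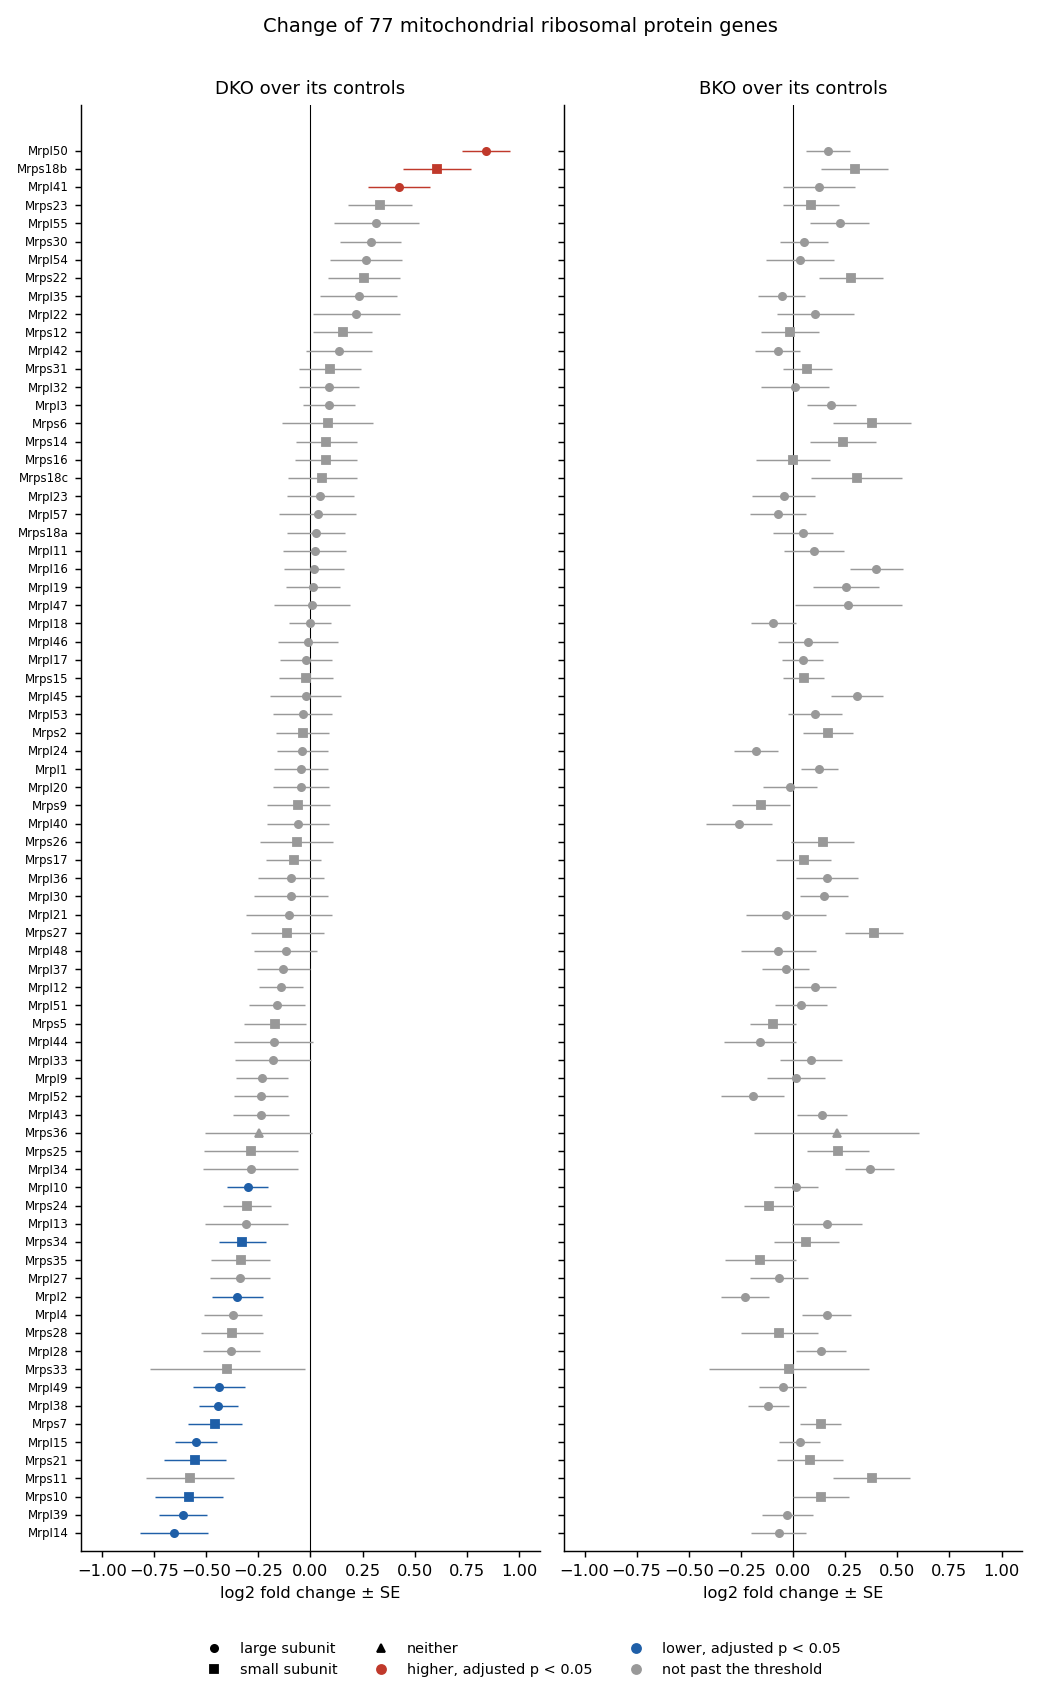
Log2 fold change with its SE for each of the 77 members, DKO over its controls on the left and BKO over its controls on the right, in the order of the DKO change. Red and blue mark members called higher and lower in edgeR, and circles, squares and a triangle mark the large subunit, the small subunit and Mrps36. In the DKO panel 3 members are red and 11 blue; in the BKO panel 0 are coloured.

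Mrpl50, which encodes a large-subunit protein without a bacterial counterpart, rose more than any other member. It had 55.4, 47.0, 48.6 and 60.8 CPM in DKO-7068, DKO-7070, DKO-7112 and DKO-7137, against 27.7, 28.5, 33.3 and 28.8 CPM in the 4 controls. Every DKO library lay above every control, and the means of 52.9 ± 6.38 and 29.6 ± 2.54 CPM differ by 1.79-fold (log2 fold change 0.84, SE 0.11, edgeR adjusted p = 0.000348). The gene lies on chromosome 4 at 49512596 to 49521093 and overlaps no other annotated gene. Zfp189, which starts 83 bases away on the other strand, was not called, with a log2 fold change of -0.18.

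Mrps18b encodes 1 of 3 mammalian relatives of the bacterial small-subunit protein S18. It stood at 16.9, 12.5, 15.3 and 21.1 CPM in the DKO libraries, against 10.7, 11.1, 10.99 and 10.3 CPM in controls (log2 fold change 0.61, SE 0.16, edgeR adjusted p = 0.0150). Again the groups did not overlap, although the DKO libraries spread much more than the controls. The gene (chromosome 17, 35910379 to 35916389) shares its place with an annotated gene, Gm16279, on its other strand. Mrpl41, a large-subunit protein known in human cells also for binding BCL2, was at 15.9, 14.4, 13.8 and 20.1 CPM in DKO libraries, against 12.7, 10.8, 12.5 and 11.99 CPM in controls. All DKO values were above all control values, with a log2 fold change of 0.42 (SE 0.15, edgeR adjusted p = 0.0463). The Mrpl41 call held under 6 of these 18 alternatives, with adjusted p from 0.0106 to 0.114, and of the 8 fits without a single library it held in 1, that without DKO-7112.

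Among the large-subunit genes, Mrpl14 had the most negative change. Its product is the relative of bacterial L14, which sits at the interface with the small subunit. Mrpl14 stood at 17.9, 25.3, 17.7 and 16.1 CPM in DKO libraries, against 35.7, 24.9, 29.7 and 30.9 CPM in controls (log2 fold change -0.65, SE 0.16, edgeR adjusted p = 0.0105). The groups overlapped, because DKO-7070 was just above WT-7069. Mrpl14 (chromosome 17, 45686322 to 45698495) overlaps Tmem63b on the other strand at its start, and the starts of the 2 genes lie 583 bases apart. The sources used here do not state the strand setting of the counting, so reads from the shared stretch cannot be told apart.

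Mrpl39, whose product has a fold like that of threonyl-tRNA synthetase and lies near the exit of the peptide tunnel, was at 20.2, 17.0, 16.6 and 20.3 CPM in DKO libraries, against 30.1, 28.9, 28.8 and 25.2 CPM in controls. No DKO value reached a control value, and the means of 18.5 ± 1.999 and 28.3 ± 2.11 CPM correspond to a 1.53-fold lower level (log2 fold change -0.61, SE 0.12, edgeR adjusted p = 0.00230). The gene overlaps no other (chromosome 16, 84717576 to 84735742). Mrpl15, a relative of bacterial L15 in the core of the subunit, had 31.3, 33.02, 25.6 and 31.3 CPM in DKO libraries, against 45.1, 42.4, 44.4 and 45.6 CPM in controls. The separation was clean, with at most 33.02 CPM in a DKO liver and at least 42.4 CPM in a control (log2 fold change -0.55, SE 0.10, edgeR adjusted p = 0.00213).

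Mrpl38 is a large-subunit protein of the central protuberance, the crest over the transfer RNA sites, and has no bacterial counterpart. It was at 37.0, 41.3, 38.5 and 44.3 CPM in DKO libraries, against 54.9, 55.2, 56.3 and 52.6 CPM in controls (log2 fold change -0.44, SE 0.09, edgeR adjusted p = 0.00426). All 4 DKO libraries were below all 4 controls. Mrpl49, another large-subunit protein without a bacterial counterpart, was also separated between the groups, at 14.4 to 18.1 CPM in DKO livers and 19.95 to 25.99 CPM in controls (log2 fold change -0.44, edgeR adjusted p = 0.0201). Syvn1 overlaps it on the other strand. Mrpl2, the relative of the L2 protein of the peptidyl transferase centre, averaged 11.8 ± 0.965 CPM in DKO livers and 15.1 ± 0.953 CPM in controls (log2 fold change -0.35, edgeR adjusted p = 0.0461). Mrpl10, which anchors the stalk that recruits elongation factors, averaged 27.3 ± 2.20 CPM in DKO livers and 33.6 ± 1.28 CPM in controls (log2 fold change -0.30, edgeR adjusted p = 0.0331). Both were below the controls in each DKO library. The Mrpl2 call ended with a term for the tag series (edgeR adjusted p = 0.0509) and when any single library was left out, and that of Mrpl10 when any of 5 libraries was left out (DKO-7068, DKO-7070, WT-7069, WT-7114 or WT-7139), with adjusted p up to 0.0955 and 0.0862.

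Of the small-subunit genes, Mrps10 and Mrps7 belong to the head, which swivels as transfer RNAs pass. Mrps10, the relative of bacterial S10, was at 10.4, 9.36, 7.49 and 9.53 CPM in DKO libraries, against 16.5, 12.3, 14.9 and 11.6 CPM in controls (log2 fold change -0.58, SE 0.16, edgeR adjusted p = 0.0179). The groups did not overlap, but without WT-7067 the adjusted p was 0.0543. Mrps7, the relative of bacterial S7, was at 27.0, 23.7, 26.6 and 33.8 CPM in DKO libraries, against 32.4, 38.9, 41.1 and 40.1 CPM in controls (log2 fold change -0.46, SE 0.13, edgeR adjusted p = 0.0190). Here DKO-7137 lay above WT-7067, so the groups overlapped. Gga3 and Mif4gd overlap Mrps7 on the other strand.

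In the body of the small subunit, Mrps21, the relative of bacterial S21, stood at 16.7, 14.8, 12.7 and 16.9 CPM in DKO libraries, against 19.0, 23.2, 20.2 and 27.4 CPM in controls. The groups were separate (log2 fold change -0.56, SE 0.15, edgeR adjusted p = 0.0149). No other gene overlaps Mrps21 (chromosome 3, 95862634 to 95871519). Mrps34, whose human gene is mutated in a mitochondrial disease of infancy, was at 20.2, 18.7, 21.5 and 16.6 CPM in DKO libraries, against 24.2, 22.7, 25.1 and 24.6 CPM in controls. It too was below the controls in each DKO library (log2 fold change -0.33, SE 0.11, edgeR adjusted p = 0.0430). The Mrps34 call held under 8 of the 18 alternatives, and of the 8 fits without a single library it held in 2, those without DKO-7112 and without WT-7069. Mrps34 shares its locus with Nme3 and Mapk8ip3.

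**Figure D2:**
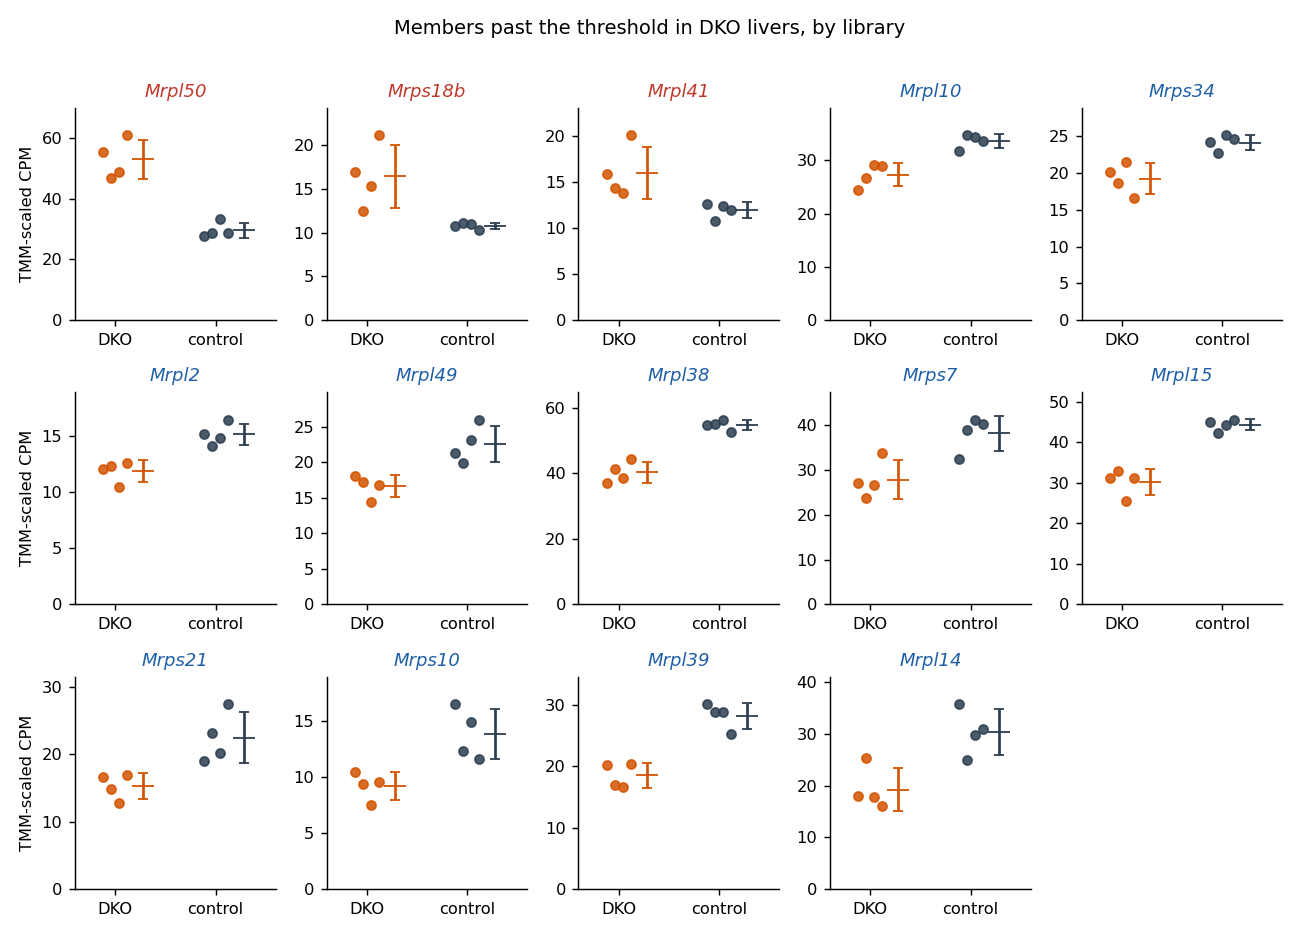
TMM-scaled CPM per library for the 14 members called in DKO livers, in the order of their change, with DKO libraries in orange on the left and their controls in dark blue on the right. Bars give mean ± SD over n = 4, red titles mark higher and blue titles lower members, and each vertical axis starts at 0. The 2 groups overlap for Mrpl14 and Mrps7 and are separate for the other 12 members.

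Complete separation of the 4 DKO libraries from the 4 controls was seen for 16 members. In 4 of them every DKO library was higher, against 18.5% of all genes tested, and in 12 every DKO library was lower, against 16.9% of all genes tested. The 4 were Mrpl50, Mrps18b, Mrpl41 and Mrps23, and the last of these, named after its values were seen, was not called (log2 fold change 0.33, edgeR adjusted p = 0.114). Of the 14 called members, 8 overlap another annotated gene and 6 do not (Mrpl50, Mrpl41, Mrpl39, Mrps10, Mrps21 and Mrpl38). Over all 77, 41 overlap another gene, 35 of them one on the opposite strand. The sources used here do not state how reads shared with processed pseudogenes were counted.

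Grouped by place in the ribosome, the called genes fell in several parts of the structure. The counts stand against 19.2% of all genes tested called higher and 16.6% called lower in DKO livers. Many groups are small, and whether any differed from these shares was not tested. The large subunit had 2 higher and 7 lower of 50 members with a median log2 fold change of -0.05, and the small subunit 1 higher and 4 lower of 26 with a median of -0.07. Within the large subunit, 1 of 5 stalk genes, 1 of 9 genes of the central protuberance, 1 of 8 genes around the peptide exit tunnel and 1 of 4 genes of the peptidyl transferase core were lower, and 0 were higher in these 4 groups. Their medians were -0.04, -0.06, -0.02 and -0.17. In the head of the small subunit 2 of 8 genes were lower and 0 higher, with a median of -0.32, and in its body 2 of 17 were lower and 1 higher, with a median of -0.07. Members with a bacterial counterpart had 1 higher and 7 lower of 46, and ribosomal members without one had 2 higher and 4 lower of 30. A list of members with known disease mutations in their human genes, which may be incomplete, held 13 genes. Of these, 2 were lower and 0 higher (Mrps7 and Mrps34).

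Several members with known special roles were not called in DKO livers. Mrpl12, the stalk protein that also binds the mitochondrial RNA polymerase, averaged 53.2 ± 3.01 CPM in DKO livers and 58.7 ± 6.44 CPM in controls (log2 fold change -0.14, SE 0.11). Mrpl45, which contacts the inner membrane beside the tunnel exit, averaged 18.1 ± 3.70 CPM in DKO livers and 18.4 ± 2.61 CPM in controls. Mrps12, the relative of the decoding protein S12, averaged 17.2 ± 1.30 CPM in DKO livers and 15.5 ± 2.48 CPM in controls. For all of these the difference lay within the spread between libraries. Mrpl3 and Mrps22, whose human genes carry disease mutations, had log2 fold changes of 0.09 (SE 0.12) and 0.26 (SE 0.17). Mrps30, a large-subunit protein of the central protuberance, had 0.29 (SE 0.15, edgeR adjusted p = 0.151). It was called higher with scaling by total counts only, at 0.47 and an adjusted p of 0.0420.

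The 3 S18 relatives did not share the Mrps18b result. Mrps18c, in the small subunit like Mrps18b, was at 5.75, 5.58, 5.54 and 4.87 CPM in DKO libraries, against 4.59, 5.35, 5.05 and 5.93 CPM in controls. Mrps18a, which sits in the large subunit, was at 11.5, 13.04, 11.5 and 13.7 CPM in DKO libraries, against 11.2, 12.2, 14.4 and 10.98 CPM in controls. Both overlapped between groups and were not called, with log2 fold changes of 0.06 (SE 0.17) and 0.03 (SE 0.14), and the differences between the 3 genes were not tested. Mrps36 averaged 2.97 ± 0.487 CPM in DKO livers and 3.55 ± 1.00 CPM in controls (log2 fold change -0.25, SE 0.26).

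The genes differed widely in mRNA level. Per kilobase of the longest coding transcript in GENCODE M21, controls of the DKO experiment ranged from 1.151 to 47.0 CPM per kilobase with a median of 10.6. The 3 highest members on this scale were Mrpl14 (47.0), Mrps21 (46.0) and Mrpl12 (44.6), and the 3 lowest were Mrps33 (1.151), Mrps25 (1.36) and Mrpl47 (1.94). Controls of the BKO experiment ranged from 1.06 to 35.1 CPM per kilobase, with Mrpl12 (35.1), Mrpl38 (31.8) and Mrpl52 (29.6) at the top and Mrps25 (1.06), Mrpl47 (1.86) and Mrpl19 (1.95) at the bottom. The transcript that liver uses may be shorter than the longest one, so a low value per kilobase can come from the length chosen. The lowest count of any member in a library was 5 in the DKO experiment, for Mrps33, and the median over members of the lowest library's count was 109 there and 249 in the BKO experiment. Mrps33 was at 0.411, 1.26, 1.19 and 1.04 CPM in DKO libraries, against 1.34, 1.146, 1.35 and 1.26 CPM in controls, with DKO-7068 apart from the rest.

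In BKO livers no member was called. Of the 77 members, all tested, 0 were higher and 0 lower in edgeR, against 0.185% higher and 0.398% lower of 14061 genes tested, and DESeq2 and limma called 0 members too. At an unadjusted p under 0.05, 4 members were higher and 0 lower, against 5.88% higher and 5.75% lower of all genes tested, so the share of higher members was near the background. The 4 were Mrpl16, Mrps27, Mrpl34 and Mrpl45, the first 3 named after their values were seen, with log2 fold changes of 0.40, 0.39, 0.37 and 0.31. Their edgeR adjusted p-values ran from 0.232 to 0.357. The median log2 fold change of the members was 0.06, with a range from -0.26 to 0.40 and a median SE of 0.14, and the median over all genes tested was 0.0001. With scaling by total counts only, the median of the members turned to -0.0049 and that of all genes to -0.07.

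The summed level of the 77 genes was 1148 ± 49.8 CPM in BKO livers and 1103 ± 44.3 CPM in controls, with 1098 to 1211 CPM in the 4 knockouts and 1046 to 1154 CPM in the 4 controls, so the groups overlapped. Every BKO library lay above every control for 5 members, Mrpl55, Mrps6, Mrpl16, Mrpl1 and Mrpl34, against 3.64% of all genes tested, and below for 0, against 3.36% of all genes tested. Mrpl16, a protein of the peptidyl transferase core, was at 14.2, 14.8, 13.7 and 11.8 CPM in BKO libraries, against 10.2, 8.71, 11.4 and 11.0 CPM in controls. Mrpl34, the relative of bacterial L34, was at 18.7, 22.1, 19.6 and 23.1 CPM in BKO libraries, against 13.8, 16.0, 17.5 and 17.6 CPM in controls. Neither passed the adjusted test. The 3 members that were higher in DKO livers were not called in BKO livers, with log2 fold changes of 0.17 (SE 0.11) for Mrpl50, 0.29 (SE 0.16) for Mrps18b and 0.12 (SE 0.17) for Mrpl41.

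Whether the 2 knockouts differed was tested on the change in DKO minus the change in BKO, each over its own controls, in 1 fit of all 16 libraries. Each knockout belongs to a separate experiment with its own depth. Knockout and experiment therefore cannot be told apart in this difference. Of the 77 members 1 had a higher change in DKO and 9 a lower one, 1.30% and 11.7%, against 11.0% and 11.5% of the 14050 genes tested. The share with a lower change was therefore at the background. The median difference was -0.20 over the members and -0.01 over all genes tested. It was below 0 for 58 members and above 0 for 19, against 7124 and 6923 of all genes tested. With scaling by total counts only the median over all genes moved to 0.27 and that of the members to 0.08, and 1 member had a higher and 0 a lower change.

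Mrpl50 was the member with the higher change in DKO (difference 0.64, SE 0.15, edgeR adjusted p = 0.00637). In the BKO experiment it had 36.5, 35.5, 35.1 and 33.02 CPM in the knockouts, against 30.7, 35.4, 33.1 and 25.5 CPM in controls, so the groups overlapped there. The most negative difference was that of Mrps11, the relative of bacterial S11 on the platform of the small subunit (-0.99, SE 0.27, edgeR adjusted p = 0.0140). Mrps11 was at 6.08, 8.46, 4.67 and 6.01 CPM in DKO livers, against 8.84, 7.54, 10.1 and 11.4 CPM in controls, and at 4.71, 5.67, 4.43 and 4.30 CPM in BKO livers, against 3.12, 3.76, 3.53 and 4.36 CPM in controls. It was called in neither knockout alone (edgeR adjusted p = 0.0533 in DKO and 0.470 in BKO), and the 2 changes had opposite signs. The controls of Mrps11 differed too, with means of 9.46 CPM in the DKO experiment and 3.69 CPM in the BKO experiment. Its first exon overlaps that of Mrpl46, another member, on the other strand.

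Of the 14 members called in DKO livers, 7 also differed between the knockouts, Mrpl50 and 6 with a lower change. For these 6 the differences were -0.75 for Mrps10, -0.67 for Mrps21, -0.62 for Mrps7, -0.62 for Mrpl14, -0.61 for Mrpl39 and -0.61 for Mrpl15 (edgeR adjusted p from 0.00428 to 0.0472). For the other 7, among them Mrps18b (0.28, SE 0.23) and Mrpl38 (-0.35, SE 0.13, edgeR adjusted p = 0.0598), a difference was not shown. Mrpl4, counted above in the peptidyl transferase core, and Mrpl28 differed too, at -0.57 and -0.55 (edgeR adjusted p = 0.0303 and 0.0334). Both were named after their values were seen, and in DKO livers alone they did not pass (edgeR adjusted p = 0.0605 and 0.0510). With the F5 and F5-2 libraries summed as 1 control, the differences of Mrps21 and Mrpl4 did not pass (edgeR adjusted p = 0.0539 and 0.0519). Without WT-7139 the count of lower differences was 5. Over the 16 fits without a single library, the differences of Mrpl14, Mrps21, Mrpl28 and Mrpl4 passed in 4, 7, 7 and 8, and those of the other 6 members in 16.

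**Figure D3:**
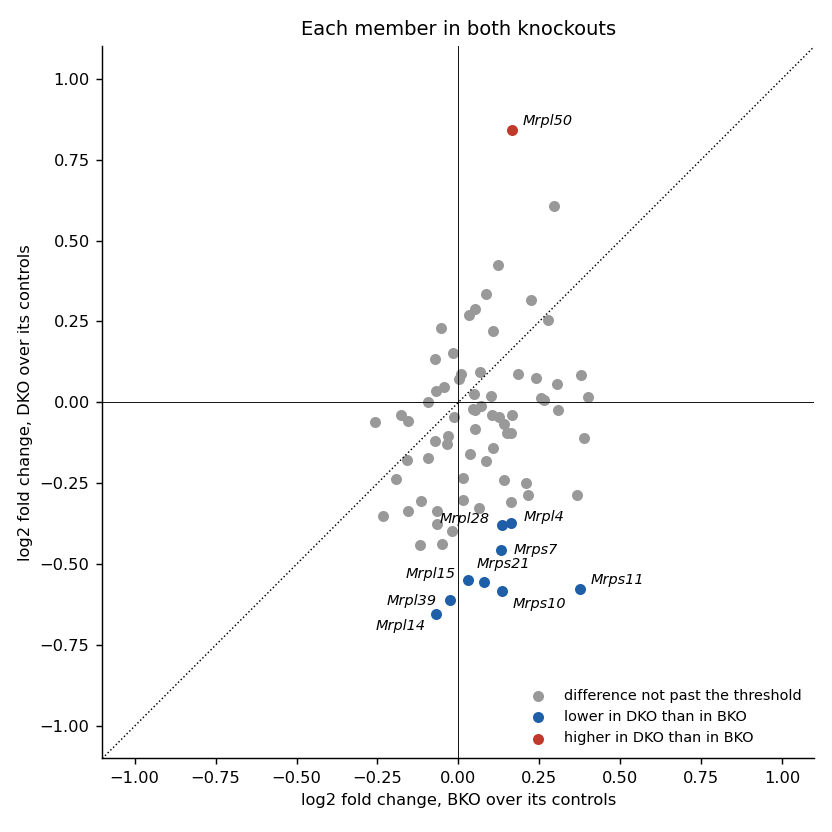
Each point is 1 of the 77 members, with the log2 fold change of BKO over its controls on the horizontal axis and that of DKO over its controls on the vertical axis, and the dotted line marks equal change. Coloured points differ between the knockouts in edgeR: Mrpl50 above the line and 9 members below it. The BKO values lie between -0.26 and 0.40 and the DKO values between -0.65 and 0.84.

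Among the complexes compared here, the respiratory chain with ATP synthase, and not the mitochondrial ribosome, had the lowest median change in DKO livers. Of 77 tested nuclear genes for the respiratory chain and ATP synthase, 63 were lower and 0 higher, with a median log2 fold change of -0.53, against 11 lower and 3 higher of 77 and a median of -0.07 for the mitochondrial ribosomal protein genes. Their summed level was 5087 ± 506 CPM in DKO livers and 7375 ± 302 CPM in controls, a pair of groups that did not overlap (4523 to 5753 CPM against 7171 to 7824 CPM). Of 78 tested genes for cytosolic ribosomal proteins, 5 were higher (Rpl22l1, Rpl5, Rplp1, Rps12 and Rps24) and 0 lower (median 0.06). The proteasome list took all genes named Psma, Psmb, Psmc or Psmd with a number, whether or not each product is a subunit. Of 37 tested, 4 were higher (Psma1 and the immunoproteasome genes Psmb8, Psmb9 and Psmb10) and 1 lower (Psmd9), with a median of -0.0048. These genes were named after their values were seen. In BKO livers 0 genes of these 3 complexes were called in edgeR, and their medians were -0.02 for the respiratory chain, 0.09 for cytosolic ribosomal proteins and 0.09 for the proteasome. No test compared the groups of genes with each other.

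**Figure D4:**
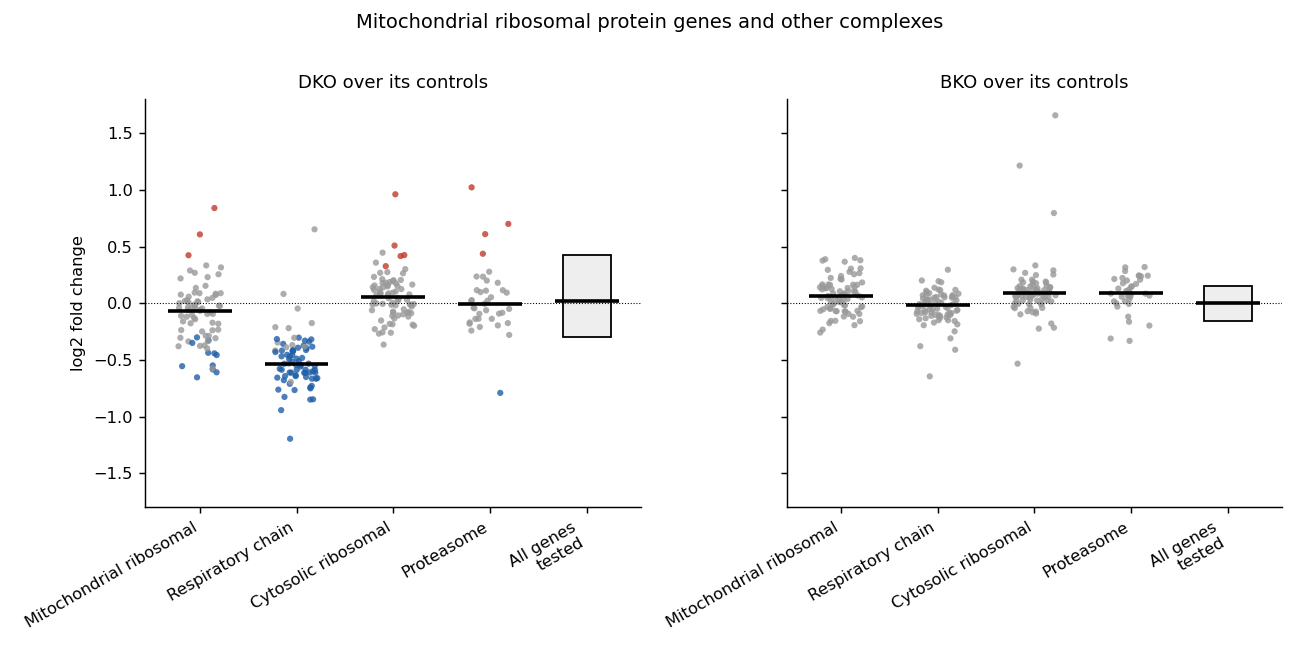
Log2 fold change of single genes (points) for the mitochondrial ribosome, the respiratory chain with ATP synthase, cytosolic ribosomal proteins and the proteasome, in DKO livers on the left and BKO livers on the right, each over its own controls. Black lines are medians, boxes span the interquartile range of all genes tested, and red and blue points were called higher and lower in edgeR. In DKO livers the medians are -0.07 for the mitochondrial ribosome and -0.53 for the respiratory chain.

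Cell type markers moved in the same DKO libraries. Macrophage markers were higher for 9 of 11 tested and summed to 337 to 488 CPM in DKO livers, against 137 to 218 CPM in controls. Stellate and matrix markers were higher for 10 of 12 (2098 to 3147 CPM against 442 to 639 CPM), cholangiocyte markers for 4 of 6 tested (121 to 928 CPM against 37.9 to 61.8 CPM) and proliferation genes for 12 of 13 (136 to 252 CPM against 39.5 to 59.7 CPM). Of 10 hepatocyte markers 1 was higher and 4 lower (102830 to 124105 CPM against 145462 to 172703 CPM), and of 8 endothelial markers 1 was higher and 3 lower (536 to 562 CPM against 588 to 726 CPM). Of 8 lymphocyte markers 1 was abundant enough to be tested and was higher (6.73 to 12.2 CPM against 3.70 to 6.396 CPM). No marker of any list was without counts in a whole group. In BKO livers 1 marker, Mcm2 of the proliferation list, was called. The part of these shifts in the values of the mitochondrial ribosomal protein genes was not tested.

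The counts of the 7 lists around the ribosome stand against 19.2% of all genes tested called higher and 16.6% called lower in DKO livers. Of 6 further ribosomal proteins without an Mrp name, 1 was lower, Aurkaip1, which encodes a small-subunit protein (21.9 ± 2.04 CPM in DKO livers and 28.8 ± 1.75 CPM in controls, log2 fold change -0.39, edgeR adjusted p = 0.0154). Dap3, a GTP-binding protein of the small subunit, averaged 28.2 ± 3.24 CPM in DKO livers and 28.01 ± 2.098 CPM in controls. Of 26 tested genes on the list for ribosome assembly 1 was higher and 3 lower (Mief1, Nsun4 and Noa1). The higher one was Ddx28, an RNA helicase needed to build the large subunit, at 16.4, 14.3, 23.8 and 24.6 CPM in DKO libraries, against 5.93, 8.50, 9.76 and 6.44 CPM in controls. Its log2 fold change of 1.36 (SE 0.23, edgeR adjusted p = 0.00108) was above that of any member, and it differed from BKO, where the change was -0.07 (difference 1.40, edgeR adjusted p = 0.00219). Ddx28 (chromosome 8, 106009621 to 106011882) overlaps Dus2 on the other strand. Mief1 was lower, at 41.3 ± 0.937 CPM in DKO livers and 57.1 ± 8.83 CPM in controls (log2 fold change -0.47, edgeR adjusted p = 0.0109).

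Of 16 mitochondrial translation factors and regulators of mitochondrial mRNA, 3 were lower and 0 higher. Lrpprc, which stabilises mitochondrial mRNAs, had 131, 127, 118 and 144 CPM in DKO libraries, against 189.7, 188, 186 and 158 CPM in controls (log2 fold change -0.48, SE 0.11, edgeR adjusted p = 0.00734). The groups were separate, and the change differed from that in BKO livers (difference -0.53, edgeR adjusted p = 0.00593). The initiation factor gene Mtif3 and the elongation factor gene Guf1 were lower by similar amounts (log2 fold changes -0.57 and -0.45, edgeR adjusted p = 0.0245 and 0.0258). Of 20 tested mitochondrial aminoacyl-tRNA synthetase genes 3 were lower and 1 higher (Pars2), the lower ones being Aars2 (10.5 ± 1.55 CPM in DKO livers and 18.4 ± 2.03 CPM in controls, log2 fold change -0.81), Nars2 (-0.73) and Hars2 (-0.46). Their edgeR adjusted p-values ran from 0.00174 to 0.0196. On the other strand, Lrpprc overlaps AC165360.1, Mtif3 overlaps Gtf3a, Guf1 overlaps Gnpda2, Nars2 overlaps C230038L03Rik and Hars2 overlaps Hars.

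Genes that keep, copy and transcribe mitochondrial DNA, on which the ribosomal RNAs depend, had 3 lower (Peo1, Polg2 and Top1mt) and 1 higher (Polg) of 10 tested. Peo1, the gene of the mitochondrial replicative helicase, was at 16.9, 21.5, 18.1 and 19.6 CPM in DKO libraries, against 30.1, 30.4, 28.04 and 30.3 CPM in controls (log2 fold change -0.64, SE 0.11, edgeR adjusted p = 0.00115). Polg2, the accessory subunit of the mitochondrial DNA polymerase, was at 2.61 to 3.06 CPM in DKO libraries and 4.71 to 6.18 CPM in controls (log2 fold change -0.89, edgeR adjusted p = 0.00435). Both sets of groups were separate. Polg overlaps Fanci, Polg2 overlaps Milr1 and Top1mt overlaps Gm15945, each on the other strand. Of 18 genes for mitochondrial mass and import 1 was lower and 0 higher, the import receptor gene Tomm70a (102 ± 6.998 CPM in DKO livers and 156 ± 13.8 CPM in controls, log2 fold change -0.62, edgeR adjusted p = 0.00138). Tomm70a overlaps Nit2 on the other strand. The pore gene Tomm40 had a log2 fold change of 0.30 (edgeR adjusted p = 0.110) and the citrate synthase gene Cs one of -0.21 (edgeR adjusted p = 0.166).

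Of 11 known transcriptional regulators of nuclear mitochondrial genes 1 was higher and 2 were lower in DKO livers. Gabpa, the DNA-binding subunit of the ETS factor GABP, was at 42.7, 47.1, 47.5 and 52.5 CPM in DKO libraries, against 60.9, 64.8, 78.3 and 76.5 CPM in controls (log2 fold change -0.56, SE 0.12, edgeR adjusted p = 0.00357). The groups were separate, and the change was lower than in BKO livers (difference -0.46, edgeR adjusted p = 0.0332). Esrra, a nuclear receptor that acts on respiratory chain genes, averaged 17.1 ± 3.66 CPM in DKO livers and 27.7 ± 4.18 CPM in controls (log2 fold change -0.69, edgeR adjusted p = 0.0104). Gabpa overlaps Atp5j, and Esrra overlaps Trmt112. Myc, a growth regulator of ribosome and mitochondrial genes, was at 64.8, 53.7, 17.7 and 29.1 CPM in DKO libraries, against 5.26, 24.1, 5.83 and 3.41 CPM in controls. With WT-7069 above DKO-7112 its groups overlapped (log2 fold change 2.08, SE 0.67, edgeR adjusted p = 0.0451). Nrf1, named here because its motif was searched, averaged 15.0 ± 0.830 CPM in DKO livers and 12.5 ± 1.06 CPM in controls and was not called (log2 fold change 0.26, edgeR adjusted p = 0.126). In BKO livers 0 genes of all 7 lists around the ribosome were called in edgeR, with unadjusted p under 0.05 for 9 higher genes and 3 lower ones over the 7 lists (5.88% and 5.75% of all genes tested), among them Myc (log2 fold change 0.85) and Slirp (0.83), the partner of Lrpprc.

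**Figure D5:**
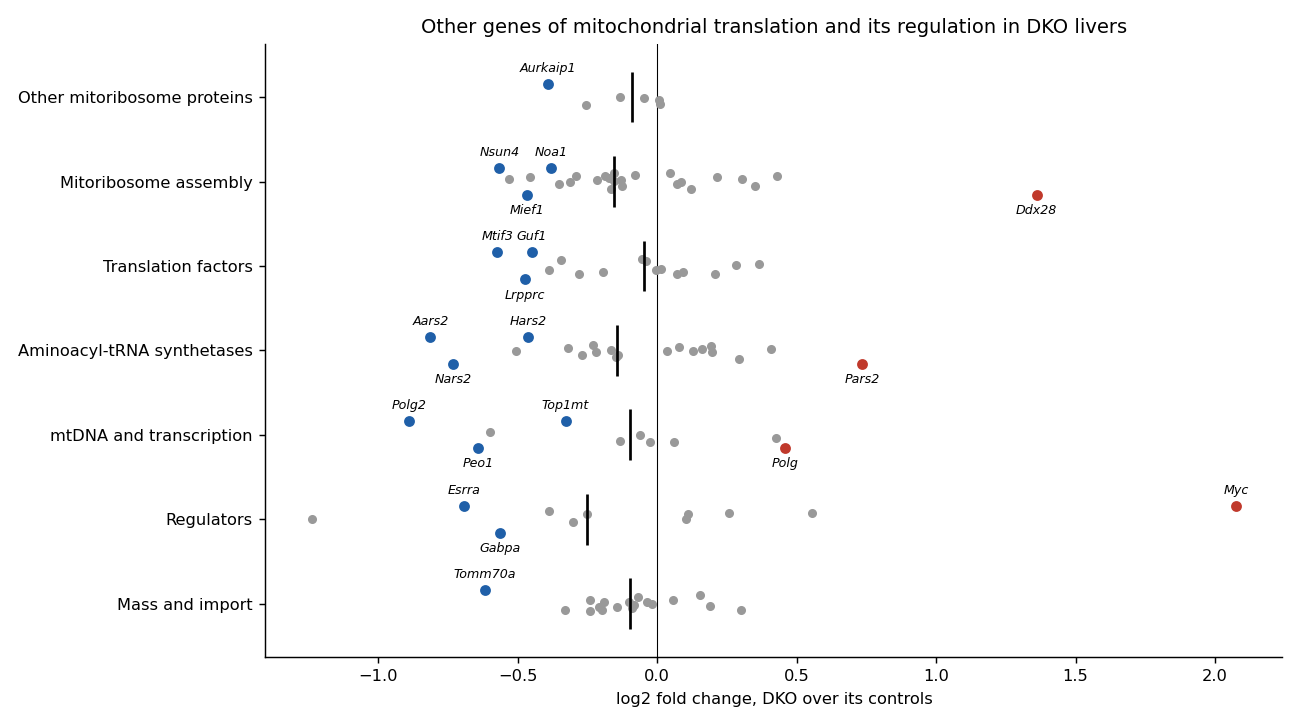
Log2 fold change of DKO over its controls for single genes (points) of 7 lists around the mitochondrial ribosome, with the list median as a black line. Red and blue points were called higher and lower in edgeR and are named. Ddx28 at 1.36 and Myc at 2.08 lie farthest to the right.

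Many members share a start region with another gene. Within 1000 bases of the start of 33 members a protein-coding gene starts on the other strand. Among the 27 such partners outside the family that were tested in DKO livers under their annotated names, 4 were higher (Ska3, Mtbp, Ncapd2 and Rab6a) and 3 lower (Ndufs6, Ndufb5 and Klc4), against 19.2% higher and 16.6% lower of all genes tested. Twnk, which starts 779 bases from Mrpl43, is not among these 27, because the counts list this gene under its older name Peo1. As given above, Peo1 was lower in DKO livers. For 9 called members the partner was tested, and in 1 of the 9 pairs it was called in the same direction. That was Mrpl2 with the kinesin light chain gene Klc4, 207 bases away (log2 fold change -1.09, edgeR adjusted p = 3.59e-05). These partners were named after their values were seen. Ppp1r10, 45 bases from Mrps18b, was not called at -0.60 (edgeR adjusted p = 0.0951), with a sign opposite to that of Mrps18b.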

How the data were processed

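The labels describe mRNA-seq of total RNA from 16 liver samples of mice, and raw read counts per gene were deposited by the authors in 1 table for each experiment. Per the labels' protocols, RNA was purified with TRIzol and an RNeasy Mini kit and libraries were made with a NuGEN Ovation kit. Per the submitters' processing notes, the tools were featureCounts 1.6.2, HISAT2 2.1.0 and Trim Galore 0.4.1, with roles unstated. The sources used here do not state the strand setting, the annotation or the treatment of shared reads.

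Every column matched a labelled library, and 0 columns were left without one. Of the names in the BKO experiment, 27 had turned into dates. They stayed in its test but not in the fit of both tables, which used 24394 genes. Each experiment was fitted with edgeR 4.0.16 (R 4.3.3) with filterByExpr, TMM scaling and the robust quasi-likelihood test with Benjamini-Hochberg adjustment at 0.05 over all genes tested. A fit of all 16 libraries tested the difference between the knockouts. DESeq2 1.42.0 and limma 3.58.1 were alternatives, beside other scalings and filters, leaving out each library, a term for the tag series and sums of close libraries (DKO-7068 with DKO-7070, and F5 with F5-2). The scripts were tested on simulated data with 67 genes changed 1.5-fold, 67 changed 2-fold, 66 changed 4-fold and the rest unchanged. Of the 1.5-fold changes 11.9% were recovered in the DKO setting, 16.4% in the BKO setting and 2.99% for the difference. Of the 2-fold changes 50.7%, 68.7% and 29.9% were recovered, so a member that was not called may still have changed. In the data far more genes were called in DKO livers (35.8% of those tested) and for the difference (22.5%). The adjusted threshold was therefore stricter in the simulation. Its shares do not measure recovery in these comparisons and do not rank the settings. The spread between libraries sets the precision of each value. The members and gene lists were chosen with earlier results of these data known. Named members are those called in a comparison, up to 12 each way (6 for the difference), a set chosen by role, and the 3 highest and 3 lowest per kilobase. Named related genes are up to 2 per list and comparison by p, and the others were named after their values were seen. Gene positions come from GENCODE M21 on GRCm38. The promoter windows come from RefSeq on GRCm38.p6.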

Additional observations from a re-analysis of the deposited data

Results flagged for a closer look

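In 4 of 116 groups of 4 libraries tested over the named members (3.45%, where chance gives about 1 in 20), a library stood far from the other 3. Mrpl3 was low in the BKO library F4, at 13.04 CPM against 15.6 to 15.8 CPM in the other BKO libraries. Mrps33 was high in the same library, at 3.21 CPM against 1.66 to 1.89 CPM. Mrps10 was low in the BKO control F2, at 9.11 CPM against 11.4 to 11.7 CPM in the other controls. Mrps34 was low in the BKO control F7, at 18.7 CPM against 21.7 to 22.2 CPM.

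The change in DKO minus the change in BKO passed edgeR's test in the fit of all 16 libraries for 10 members. The log2 differences were 0.64 for Mrpl50, -0.99 for Mrps11, -0.75 for Mrps10, -0.67 for Mrps21, -0.62 for Mrps7, -0.62 for Mrpl14, -0.61 for Mrpl39, -0.61 for Mrpl15, -0.57 for Mrpl4 and -0.55 for Mrpl28. The call for Mrpl50 held under 24 of 24 alternatives, those for Mrpl15, Mrps7, Mrpl39, Mrps10 and Mrps11 under 23, those for Mrpl28 and Mrpl4 under 14, that for Mrps21 under 12 and that for Mrpl14 under 7.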

How the results depend on the processing

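With total counts only, 1 member was lower in DKO livers, with a median member change of 0.11 in DKO and -0.0049 in BKO, and 0 members had a lower change in DKO than in BKO. The count of lower differences ran from 5 to 11 when single libraries were left out. In the low tag series alone (DKO-7068, DKO-7070 and 2 controls) 1 member was higher and 5 lower in DKO, and in the high series alone 1 was higher and 1 lower. Over all genes, 4241 of 13310 were called in the low series and 1367 of 12906 in the high series. Over all alternatives other than the split by tag series, 148 summary values stayed close to those reported and 5 moved. Of the values of single members under these alternatives, 678 kept their direction and side of the threshold, 82 lost their call, 1 gained one (Mrps30) and 25 changed sign. In the split by tag series 2 summary values stayed close and 4 moved, and of single members 21 kept direction and side, 21 lost their call and 4 changed sign.

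All values that changed sign belonged to members that were not called in the comparison concerned. In DKO, with total counts only, Mrpl12 was at 0.039 and Mrpl45 at 0.15. Mrps18a in DKO was at -0.0002 with all 16 libraries in 1 fit. In the low series Mrpl45 was at 0.12 and Mrps36 at 0.14, and in the high series Mrps18a was at -0.027 and Mrps18c at -0.090. In BKO, total counts only gave -0.050 for Mrpl10, -0.016 for Mrps18a and -0.018 for Mrps30, and limma gave 0.0068 for Mrps12. Leaving out single libraries gave, in DKO, -0.15 to 0.068 for Mrpl45, -0.026 to 0.11 for Mrps18a and, for Mrps18c in DKO, -0.0073 to 0.11. In BKO it gave -0.048 to 0.082 for Mrpl10, -0.017 to 0.16 for Mrps18a, -0.010 to 0.15 for Mrps30, -0.091 to 0.060 for Mrps12 and -0.032 to 0.48 for Mrps36. Beyond the scalings' own construction, the cause was not tested. The tags give no replicate numbers shared between groups, so no library was paired with another. With a term for the tag series, 3 members were higher and 11 lower in DKO, 10 of the lower ones shared with the fit without it, and Mrpl2 was not called.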

Other observations

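Some genes named for their own lists lie close together. On chromosome 16, Mrpl39 starts at 84735742 on the minus strand and Gabpa at 84834925 on the plus strand. Both were lower in DKO livers (log2 fold changes -0.61 and -0.56). On chromosome 17, Mrpl14 starts at 45686322, Mrps18a at 46110986, Mrpl2 at 46646229 and Mrps10 at 47368887, and their log2 fold changes in DKO livers were -0.65, 0.03, -0.35 and -0.58. The neighbourhoods were noticed after the values were seen, and their part in the changes was not tested.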
